A study of Mus musculus with 8 samples.

Results

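The genes described here control the shape of the mitochondrial network or the autophagy that removes mitochondria. They are Mfn1, Mfn2, Opa1 and Dnm1l for mitochondrial fusion and fission, and Bnip3, Ulk1, Becn1, Atg5, Map1lc3b and Gabarapl2 for autophagy. The genes were chosen with earlier results of these data known. Their probe sets are all those that the platform annotation gives to 1 of them alone, with no use of measured values. That gave 26 probe sets for 10 genes, out of 22626 probe sets and 12393 genes measured.

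The study measured RNA of embryonic mouse lenses on Affymetrix GeneChip arrays. The groups were 4 dnBrg1 lens samples and 4 wild-type lens samples, all on a mixed strain background at embryonic day 15.5, and 50 ng of RNA was amplified for each array. The dnBrg1 mice are a transgenic line in which a fragment of the αA-crystallin promoter drives a FLAG-tagged, ATPase-dead form of Brg1, the catalytic subunit of SWI/SNF chromatin remodeling complexes, in postmitotic fiber cells, while the endogenous gene is intact. The free text names polysome-bound RNA for 6 of the 8 samples and total RNA alone for dnBrg1 replicates 3 and 4, although the molecule is given as total RNA throughout. The labels do not say how many embryos went into a sample.

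Mitofusins join the outer membranes of neighboring mitochondria, Opa1 joins the inner membranes, and the GTPase Dnm1l assembles on the outer membrane to divide them. Autophagy begins with the Ulk1 kinase and a lipid kinase complex that holds Becn1. An Atg5-containing enzyme then couples Map1lc3b and Gabarapl2 to lipid on the growing autophagosome, and receptors such as Bnip3 tie mitochondria to it. Lens fiber cells lose their nuclei and mitochondria as they mature. In mouse lens this loss is known to proceed without Atg5, while the receptor gene Bnip3l is needed to clear fiber cell mitochondria.

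Promoter sequence is shown for 3 members, as the 250 bases before the most upstream annotated start in RefSeq on GRCm38.p6. Mfn2 held the member probe set with the largest increase in the fit without covariates. Atg5 had probe sets that moved in opposite directions, and Bnip3, which was not called, is the mitophagy receptor of the group. Capitals mark CACGTG, an E-box sequence that reads the same on both strands and that the autophagy regulator Tfeb can bind. For 9 of the 10 members 12 windows were found, as some have several annotated starts, and 2 members had a window with the motif. These 2, Atg5 and Bnip3, are both among the 3 shown.
Mfn2, chr4:147904910-147905159, minus strand: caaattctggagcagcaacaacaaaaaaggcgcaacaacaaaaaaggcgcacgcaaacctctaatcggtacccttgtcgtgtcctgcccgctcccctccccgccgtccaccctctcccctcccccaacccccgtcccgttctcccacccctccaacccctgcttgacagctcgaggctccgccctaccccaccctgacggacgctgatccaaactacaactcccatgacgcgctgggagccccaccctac
Atg5, chr10:44268089-44268338, plus strand: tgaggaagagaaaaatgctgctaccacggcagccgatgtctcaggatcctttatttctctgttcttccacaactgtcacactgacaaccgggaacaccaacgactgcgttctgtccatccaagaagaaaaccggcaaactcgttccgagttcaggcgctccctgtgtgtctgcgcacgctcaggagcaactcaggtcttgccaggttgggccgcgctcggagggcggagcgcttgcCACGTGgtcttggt
Bnip3, chr7:138909507-138909756, minus strand: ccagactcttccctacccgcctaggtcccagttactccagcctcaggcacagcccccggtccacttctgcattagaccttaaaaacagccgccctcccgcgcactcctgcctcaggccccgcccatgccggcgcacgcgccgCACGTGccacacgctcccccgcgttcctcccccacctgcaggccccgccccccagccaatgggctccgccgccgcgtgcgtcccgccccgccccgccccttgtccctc
The motif began 14 bases before the start of Atg5 and 108 bases before that of Bnip3. Of all 32851 windows of this length, 6.02% held it. That share is by window, so it is not matched to the count by member. A match is a description of the letters and not a binding site.

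Smarca4, the Brg1 gene, has 2 probe sets, of which 1 averaged 9.73 ± 0.10 log2 units in dnBrg1 lenses and 7.38 ± 0.47 in wild-type lenses (SD, n = 4 each; limma adjusted p = 4.8e-05), and the other was not called (-0.24 ± 0.11 (SE), limma adjusted p = 0.12). Whether either reads the transgene was not tested. Of the 3 measured fiber cell markers, Cryaa and Mip were not called, at 13.36 to 14.34 in dnBrg1 lenses and 13.28 to 14.34 in wild-type lenses, and Bfsp1 was higher, at 13.38 to 13.73 in dnBrg1 lenses and 11.78 to 12.30 in wild-type lenses (1.54 ± 0.16 (SE), limma adjusted p = 8.5e-05). Together they summed to 15.34 to 15.48 in dnBrg1 lenses and 14.99 to 15.22 in wild-type lenses. The 3 lens epithelium markers summed to 13.15 to 13.40 in dnBrg1 lenses and 12.73 to 12.95 in wild-type lenses, with Pax6 and Cdh1 higher (limma, adjusted p = 0.0023 and 0.018). The third, Foxe3, lay below the array's median level, added little to the sum and was not called (-0.16 ± 0.12 (SE), limma adjusted p = 0.30). Probe sets for the 3′ end of the Gapdh and β-actin control transcripts exceeded those for the 5′ end by a mean of 0.59 to 0.65 log2 units in dnBrg1 arrays and 1.43 to 2.66 in wild-type arrays. The 4 measured retina markers summed to 12.35 to 12.71 in dnBrg1 lenses against 13.06 to 13.50 in wild-type lenses, with 2 of them lower. The lower ones were Atoh7 (-1.08) and Elavl3 (-1.99), while Neurod1 (-0.59) and Stmn2 (0.42) were not called. The 5 macrophage markers summed to 10.31 to 11.30 in dnBrg1 lenses against 11.81 to 12.22 in wild-type lenses, with 2 higher and 1 lower. The lower one, Csf1r (-2.13 ± 0.19 (SE), limma adjusted p = 4.8e-05), was the brightest of the 5 in every sample and so weighed most in the sum. Cx3cr1 (0.71) and Lyz2 (0.90) were the higher ones. The sums of the other marker lists, for endothelium, pigment cells, mesenchyme, muscle, erythroid cells and surface ectoderm, overlapped between the genotypes. Single genes in them were called all the same. Among endothelium markers Cdh5 (-0.82) was lower and Kdr (0.48) higher, and the pigment cell marker Tyrp1 (-1.02) was lower. The part of these cell types in the differences below was not tested, and in whole lenses fewer cells of a type and less RNA per cell cannot be told apart.

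Of the 26 member probe sets, 7 were higher in dnBrg1 lenses, 4 were lower and 15 did not pass the test (limma, adjusted p under 0.05 over all probe sets). The shares were 26.9% higher and 15.4% lower, against 19.8% higher and 21.0% lower among all probe sets, so the members as a set were near the background. Groups did not overlap at 12 member probe sets, or 46.2%, against 40.1% of all. The median log2 fold change was 0.10 over the members and -0.08 over all probe sets. Counting each gene by its brightest probe set, Mfn1, Mfn2 and Dnm1l were higher, Atg5, Gabarapl2 and Ulk1 were lower, and Bnip3, Opa1, Becn1 and Map1lc3b did not pass, against 17.5% higher and 23.3% lower over all genes.

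The probe sets of each gene are numbered by brightness, from 1 for the brightest, and all values are log2 RMA intensities. The plot of levels by sample shows all of them.

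**Figure D1:**
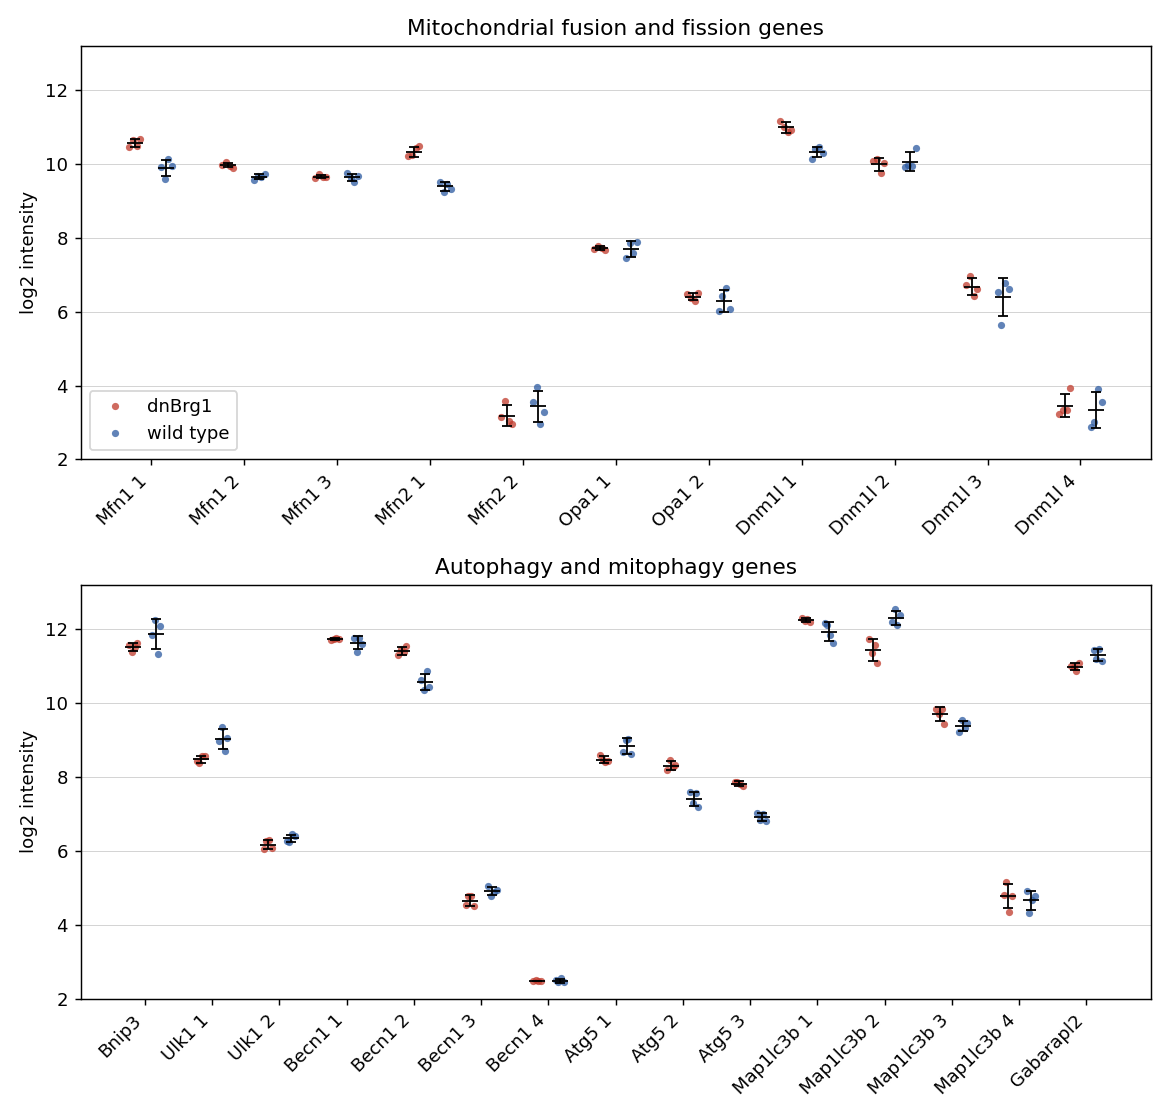
Log2 intensity of each member probe set in the 4 dnBrg1 (red, left) and 4 wild-type (blue, right) samples; black bars are the mean and SD, and numbers after a gene give the order of brightness. Mfn2 1, Dnm1l 1 and Becn1 2 lay higher in every dnBrg1 sample than in any wild-type sample, Map1lc3b 2 and Ulk1 1 lay lower in every dnBrg1 sample, and Bnip3 overlapped.

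Among the fusion genes, Mfn2 rose most. Its probe set 1 read 10.21, 10.24, 10.43 and 10.48 in dnBrg1 replicates 1 to 4, against 9.52, 9.26, 9.46 and 9.33 in wild-type replicates 1 to 4. Every dnBrg1 sample was above every wild-type sample. The log2 fold change was 0.95 ± 0.11 (SE), or 1.93-fold (limma, adjusted p = 0.00017), and the call held without any 1 sample. Probe set 2 was near the bottom of the array at 3.19 ± 0.28 in dnBrg1 and 3.44 ± 0.42 in wild-type lenses (SD, n = 4 each) and gave no call (-0.25 ± 0.22 (SE), limma adjusted p = 0.38).

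Mfn1, the other mitofusin, was higher at 2 of its 3 probe sets. Probe set 1 read 10.47, 10.65, 10.49 and 10.68 in dnBrg1 lenses and 9.92, 9.58, 10.13 and 9.94 in wild-type lenses. The groups were apart, with wild-type replicate 2 lowest, and the log2 fold change was 0.68 ± 0.13 (SE), or 1.60-fold (limma, adjusted p = 0.0027). Probe set 2 read 9.98, 10.05, 9.95 and 9.91 in dnBrg1 lenses and 9.57, 9.67, 9.65 and 9.73 in wild-type lenses. These groups were also apart, but by a smaller step of 0.31 ± 0.09 (SE, limma adjusted p = 0.020), and the call was lost without dnBrg1 replicate 1, dnBrg1 replicate 2 or wild-type replicate 1. Probe set 3, which the annotation derives from the same source sequence as probe set 2, averaged 9.66 in dnBrg1 and 9.64 in wild-type lenses and was not called (0.01 ± 0.09 (SE), limma adjusted p = 0.92).

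Opa1, the inner membrane fusion GTPase, showed no call at either probe set. Probe set 1 ranged over 7.67 to 7.78 in dnBrg1 lenses and 7.45 to 7.88 in wild-type lenses. The dnBrg1 samples lay inside the wild-type range. Without a covariate, the 95% interval of the log2 difference, -0.24 to 0.29, contains the change of neither mitofusin's probe set 1. With the control 3′ minus 5′ difference as a covariate, the value was 0.42 and its interval, -0.14 to 0.97, does contain changes of that size. Probe set 2 lay below the median level of the array and differed by 0.11 ± 0.15 (SE, limma adjusted p = 0.58).

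Dnm1l, the fission GTPase, rose at its brightest probe set. Probe set 1 read 11.18, 11.005, 10.86 and 10.92 in dnBrg1 lenses and 10.15, 10.41, 10.46 and 10.30 in wild-type lenses. The groups did not overlap, with a log2 fold change of 0.66 ± 0.11 (SE), or 1.58-fold (limma, adjusted p = 0.0014), and the call held without any 1 sample. Probe set 2, derived from the same source sequence, ranged over 9.75 to 10.14 in dnBrg1 lenses and 9.92 to 10.44 in wild-type lenses, so the groups overlapped (-0.07 ± 0.15 (SE), limma adjusted p = 0.73). The 2 dimmer probe sets, at 6.68 and 3.46 in dnBrg1 lenses and 6.40 and 3.34 in wild-type lenses, did not pass either.

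Bnip3, a receptor on the outer mitochondrial membrane that binds Atg8-family proteins and is induced by low oxygen in many cells, did not pass the test. Its single probe set was brighter than 91.6% of all probe sets and read 11.58, 11.38, 11.51 and 11.63 in dnBrg1 lenses, against 11.84, 12.25, 11.34 and 12.08 in wild-type lenses. Of the wild-type samples, 3 lay above every dnBrg1 sample and wild-type replicate 3 lay below them all. The log2 difference was -0.35 ± 0.18 (SE; 95% interval -0.76 to 0.06; limma adjusted p = 0.15). Without wild-type replicate 3 the gene was called lower (adjusted p = 0.0088), and it was not called when any other sample was left out.

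Ulk1, the kinase that starts autophagosome formation, fell. Probe set 1 read 8.43, 8.38, 8.56 and 8.58 in dnBrg1 lenses and 8.99, 9.36, 8.70 and 9.06 in wild-type lenses. The groups were apart, with wild-type replicate 3 nearest to the dnBrg1 samples. The log2 fold change was -0.54 ± 0.14 (SE), or 1.45-fold lower (limma, adjusted p = 0.013), and it was called without any 1 sample. Probe set 2, from the same source sequence but dimmer, differed by -0.17 ± 0.10 (SE, limma adjusted p = 0.22).

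Becn1, the scaffold of the autophagy lipid kinase complex, gave different readings by probe set. Probe set 1 ranged over 11.71 to 11.76 in dnBrg1 lenses and 11.40 to 11.78 in wild-type lenses, and the groups overlapped (0.10 ± 0.11 (SE), limma adjusted p = 0.50). Probe set 2 read 11.30, 11.48, 11.38 and 11.55 in dnBrg1 lenses and 10.63, 10.37, 10.87 and 10.43 in wild-type lenses. It was higher in every dnBrg1 sample, by 0.85 ± 0.13 (SE) or 1.80-fold (limma, adjusted p = 0.00075). The other 2 Becn1 probe sets were dim, at 4.66 and 2.48 in dnBrg1 lenses and 4.91 and 2.49 in wild-type lenses, and did not pass.

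Atg5, part of the enzyme that attaches lipid to Atg8-family proteins, was called in both directions. Probe set 1 read 8.604, 8.47, 8.40 and 8.43 in dnBrg1 lenses and 8.68, 9.003, 9.04 and 8.62 in wild-type lenses. The groups were separated by a narrow gap, and the decrease of -0.36 ± 0.13 (SE, limma adjusted p = 0.044) was called in 2 of the 8 repeats that left out 1 sample. Probe set 2 read 8.19, 8.46, 8.28 and 8.33 in dnBrg1 lenses and 7.59, 7.29, 7.56 and 7.19 in wild-type lenses.
Here all dnBrg1 samples were higher, by 0.91 ± 0.12 (SE) or 1.88-fold (limma, adjusted p = 0.00041). Probe set 3, just below the array's median level, read 7.88, 7.86, 7.80 and 7.75 in dnBrg1 lenses and 7.04, 6.84, 7.01 and 6.82 in wild-type lenses. It too was higher in all dnBrg1 samples (0.90 ± 0.10 (SE), 1.86-fold, limma adjusted p = 0.00012). The annotation derives all 3 Atg5 probe sets from 1 source sequence.

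Map1lc3b, the Atg8-family protein LC3B, also read differently by probe set. Probe set 1, the brightest of all member probe sets, read 12.32, 12.22, 12.28 and 12.21 in dnBrg1 lenses and 12.18, 12.12, 11.85 and 11.62 in wild-type lenses. The groups did not overlap, but the difference of 0.31 ± 0.13 (SE) did not pass (limma, adjusted p = 0.091). Probe set 2 read 11.74, 11.37, 11.58 and 11.08 in dnBrg1 lenses and 12.20, 12.56, 12.13 and 12.38 in wild-type lenses.
It was lower in every dnBrg1 sample, by -0.87 ± 0.16 (SE), or 1.83-fold lower (limma, adjusted p = 0.0022). Probe set 3 ranged over 9.45 to 9.86 in dnBrg1 lenses and 9.23 to 9.54 in wild-type lenses, an overlap, with a difference of 0.32 ± 0.13 (SE, limma adjusted p = 0.065). These 3 share 1 source sequence, and the dim probe set 4 did not pass (0.11 ± 0.19 (SE), limma adjusted p = 0.68).

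Gabarapl2, a second Atg8-family member, has 1 probe set. It read 11.02, 10.97, 10.88 and 11.09 in dnBrg1 lenses and 11.44, 11.20, 11.46 and 11.13 in wild-type lenses. All dnBrg1 samples were lower, although dnBrg1 replicate 4 came close to wild-type replicate 4. The log2 fold change was -0.32 ± 0.11 (SE), or 1.25-fold lower (limma, adjusted p = 0.047), and it was called in 2 of the 8 repeats without 1 sample.

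The disagreement between probe sets of a gene was compared directly, as the difference between the brightest probe set and each other one within a sample. This gave 16 pairs in 8 genes. At 9 pairs the groups were fully apart, which gives the smallest two-sided exact permutation p that 4 against 4 samples allow, 0.0286, and 0.0508 after adjustment over the 16 pairs, so no pair passed. The share of such pairs among other genes was not computed, so the count is not read as a trait of these genes. For Atg5, probe set 1 exceeded probe set 2 by 0.16 ± 0.17 in dnBrg1 lenses and by 1.43 ± 0.26 in wild-type lenses (SD, n = 4 each). For Map1lc3b, probe set 1 exceeded probe set 2 by 0.81 ± 0.24 in dnBrg1 lenses, while in wild-type lenses it lay below it, at -0.37 ± 0.31 (SD, n = 4 each). For Becn1 the same difference was 0.31 ± 0.11 in dnBrg1 and 1.06 ± 0.12 in wild-type lenses, and for Dnm1l it was 0.99 ± 0.13 in dnBrg1 and 0.26 ± 0.29 in wild-type lenses. Where the probes lie along each transcript was not used here.

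Averaging all probe sets of a gene before the fit gave another summary. Atg5 was then higher by 0.48 ± 0.10, Mfn2 by 0.35 ± 0.11 and Mfn1 by 0.34 ± 0.09, while Ulk1 was lower by -0.35 ± 0.09 and Gabarapl2 by -0.32 ± 0.11 (log2, SE; limma adjusted p from 0.0037 to 0.041). Dnm1l (0.25 ± 0.14) and Becn1 (0.17 ± 0.09) did not pass (limma, adjusted p = 0.18 each). Mfn1, Mfn2 and Ulk1 thus kept the direction of their brightest probe set, and Atg5 took the opposite one. Gabarapl2 has a single probe set, so averaging could not change its value.

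The 3′ minus 5′ difference of the control transcripts did not overlap between the genotypes, and its values moved with some members inside the wild-type group. The order of the 4 wild-type samples by Bnip3, Ulk1 1 or Map1lc3b 2 was the order by the control difference, and the order by Becn1 1, Becn1 2 or Becn1 4 was its reverse. That is 3 of 26 in each direction, or 11.5%, against 9.86% and 9.67% of all probe sets. With the control difference as a covariate the median standard error of the members was 0.248 instead of 0.125, and 0 of the 26 were called (5 at an unadjusted p under 0.05), against 6.37% of all probe sets. Among the 11 called members 10 kept their sign and 5 of these stayed within 1.5 times their value, such as Dnm1l 1 at 0.67 (adjusted p = 0.17) and Mfn2 1 at 0.65 (adjusted p = 0.13). Ulk1 1 turned to 0.18 (adjusted p = 0.67) and Mfn1 1 was 0.10 (adjusted p = 0.84). Bnip3, not called without it, was 0.69 with it (adjusted p = 0.13). How often called probe sets kept their sign over the whole array is not given here. Since the control difference did not overlap between the genotypes, its part and that of the transgene cannot be told apart.

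**Figure D2:**
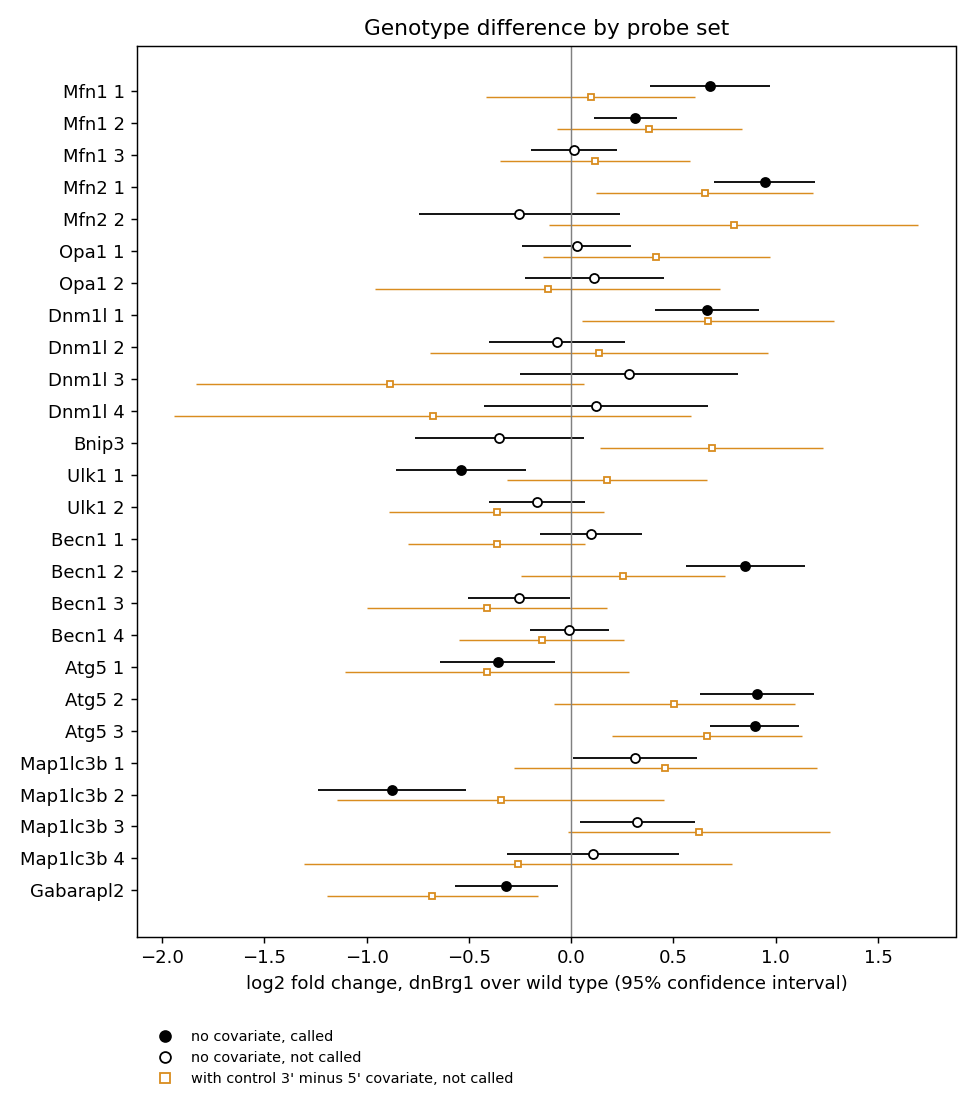
Log2 fold change, dnBrg1 over wild type, with 95% confidence interval for each member probe set, without a covariate (circles, filled where called) and with the control 3′ minus 5′ difference as a covariate (orange squares, none called). Filled circles lie on both sides of 0 for Atg5, and the intervals with the covariate are wider, with Ulk1 1 at 0.18 instead of -0.54.

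Of 80 other genes of autophagy and mitochondrial dynamics, 64 were named alone by a probe set. These too were listed with earlier results of these data known. By the brightest probe set 23 were higher (35.9%, against 17.5% of all genes), 15 were lower (23.4%, against 23.3%) and 26 did not pass. Their median log2 fold change was 0.13 and that of all genes -0.11. With the control covariate 6 of the 64 were called, all higher (9.38%, against 6.33% of all genes). Of these, 4 were also called without it, while Nrbf2 (0.02) and Tax1bp1 (-0.48) were not. By list, the 6 were 3 of 8 receptor genes, 2 of 13 fission, fusion and cristae genes and 1 of 11 initiation genes. The other lists had 0. Of the 38 genes called without the covariate, 7 turned sign with it. Of the genes called without it, 5 had another probe set called in the opposite direction. Matching counts of sign turns and opposite probe sets over all genes are not given here.

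**Figure D3:**
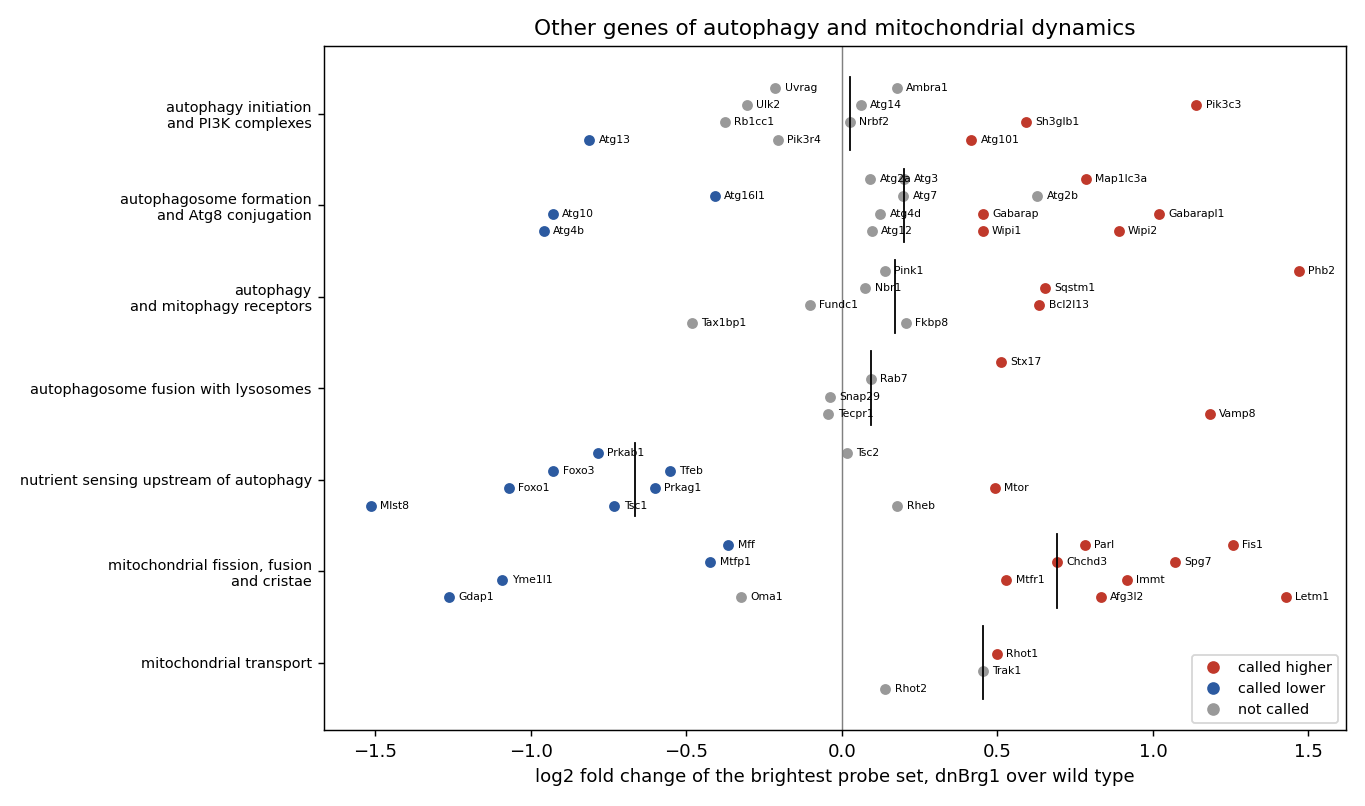
Log2 fold change of the brightest probe set, dnBrg1 over wild type, for 64 other genes in 7 lists; red points were called higher, blue lower, grey did not pass, and black lines mark each list's median. The list medians run from -0.67 for nutrient sensing to 0.69 for fission, fusion and cristae.

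In the initiation list 3 of 11 genes were higher (27.3%, against 17.5% of all genes) and 1 was lower (9.09%, against 23.3%). Pik3c3, the catalytic lipid kinase that works with Becn1 and is needed for normal mouse lens development, read 8.40, 8.49, 8.73 and 8.46 in dnBrg1 lenses and 7.20, 7.31, 7.54 and 7.49 in wild-type lenses. All dnBrg1 samples were higher, by 1.14 ± 0.12 (SE, limma adjusted p = 0.00010). Sh3glb1, which binds the Becn1 complex, was higher by 0.59 ± 0.09, and Atg13, a subunit of the Ulk1 complex, was lower by -0.81 ± 0.14, with its second probe set at -0.68 (SE, limma adjusted p = 0.00080 and 0.0016). The other Sh3glb1 probe sets, at 0.09 and 0.07, were not called.

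In the autophagosome formation list 5 of 14 measured genes were higher (35.7%, against 17.5% of all genes) and 3 were lower (21.4%, against 23.3%). Gabarapl1, of the same Atg8 family as Gabarapl2, averaged 11.89 ± 0.14 in dnBrg1 and 10.87 ± 0.21 in wild-type lenses (SD, n = 4 each), and its second probe set was also called, at 0.67. Atg10, which helps to join Atg12 to Atg5, was lower by -0.93 ± 0.23 (SE, limma adjusted p = 0.010), with a sign that turned under the control covariate (0.02, adjusted p = 0.99). Atg4b, the protease that trims Atg8 proteins, was lower by -0.96 ± 0.16 (SE, limma adjusted p = 0.0011) while its other probe set was called higher, at 0.48.

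Among mitophagy and autophagy receptors 3 of 8 measured genes were higher (37.5%, against 17.5% of all genes) and the other 5 did not pass. Sqstm1, the p62 receptor for ubiquitinated cargo, averaged 10.17 ± 0.10 in dnBrg1 and 9.52 ± 0.14 in wild-type lenses (SD, n = 4 each), and Bcl2l13, an outer membrane mitophagy receptor, averaged 11.09 ± 0.14 in dnBrg1 and 10.46 ± 0.26 in wild-type lenses. Both were called with and without the control covariate (Sqstm1 0.995, adjusted p = 0.039; Bcl2l13 1.28, adjusted p = 0.032). Phb2, an inner membrane protein that can bind LC3, was higher by 1.47 ± 0.17 (SE, limma adjusted p = 0.00019) at its brightest probe set, while its other 2 probe sets were at 0.12 and 0.08. Bnip3l is given no value because its probe sets name a further gene as well.

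For fusion with lysosomes 2 of 5 measured genes were higher (40%, against 17.5% of all genes). They were the SNARE genes Vamp8 (1.18 ± 0.19) and Stx17 (0.51 ± 0.12; SE, limma adjusted p = 0.0010 and 0.0085). Of the other Stx17 probe sets, the one at 0.63 was called and those at -0.02 and -0.05 were not. Of the nutrient-sensing genes 1 of 10 was higher (10%, against 17.5% of all genes) and 7 were lower (70%, against 23.3%). With the control covariate 0 of the 10 were called. Foxo3, a transcription factor that drives autophagy genes, read 11.69, 11.54, 11.47 and 11.71 in dnBrg1 lenses and 12.49, 12.52, 12.43 and 12.68 in wild-type lenses, a difference of -0.93 ± 0.10 (SE, limma adjusted p = 0.00014). Its other probe sets were at -0.69, called, and at 0.15, dim and not called. Foxo1 (-1.07 ± 0.22) and Mlst8 (-1.52 ± 0.31), a subunit of the mTOR complexes, were lower too (SE, limma adjusted p = 0.0035 and 0.0037). Both turned sign with the control covariate, to 0.21 and 0.42, and each had another probe set with a positive value, called for Foxo1 (0.43) and not for Mlst8 (0.21).

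Of 13 further genes of mitochondrial fission, fusion and cristae, 8 were higher (61.5%, against 17.5% of all genes) and 4 were lower (30.8%, against 23.3%). Only 2 of the 13, Afg3l2 and Immt, were called with the control covariate. Fis1, an outer membrane protein that can bind Dnm1l, read 12.83, 12.61, 12.89 and 12.91 in dnBrg1 lenses and 11.69, 10.85, 12.07 and 11.61 in wild-type lenses. All dnBrg1 samples were higher, by 1.26 ± 0.23 (SE, limma adjusted p = 0.0020), and the value was -0.11 with the control covariate (adjusted p = 0.84). Letm1, an inner membrane cation transport protein, was higher by 1.43 ± 0.21 (SE, limma adjusted p = 0.00064), with another probe set called lower at -0.52. Gdap1, an outer membrane protein linked to fission, was lower by -1.26 ± 0.23 (SE, limma adjusted p = 0.0019). Its probe set at -0.76 was also called, and those at -0.42 and -0.05 were not. The brightest probe set of neither gene was called with the control covariate (Letm1 0.66, adjusted p = 0.42; Gdap1 -0.35, adjusted p = 0.70). For mitochondrial transport 1 of 3 genes was called, as higher (33.3%, against 17.5% of all genes). It was Rhot1 (0.50 ± 0.15; SE, limma adjusted p = 0.024), which ties mitochondria to motor proteins. Its groups overlapped and the call held in 3 of the 8 repeats without 1 sample.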

How the data were processed

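RNA of 4 dnBrg1 and 4 wild-type lens samples was measured on Affymetrix mouse arrays, and groups follow the labelled genotype. The authors made the deposited intensity values with RMA (version not given in the sources used here), on the linear scale. RMA makes the arrays' distributions alike, so a shift shared by most transcripts would be removed. Values were taken to log2. The 64 array controls were set aside and the other 22626 probe sets entered 1 linear model without covariates in limma 3.58.1 under R 4.3.3. Differences are dnBrg1 less wild type, and p-values were adjusted over all probe sets by Benjamini and Hochberg, with a threshold of 0.05. The fit was tested on simulated data. Whether replicates are separate litters is not stated, so p-values measure the spread between these samples, and their number limits the precision.

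A probe set counts for a gene only if it names that gene alone, and is dim below the array's median level of 7.69. The members and lists were chosen with earlier results of these data known. The genes named are every member, up to 3 called genes per list with the largest change, Bnip3l and Pik3c3. Probe set pairs were compared with exact permutation tests. The control covariate is the mean 3′ minus 5′ difference of Gapdh and β-actin on an array. Alternatives were median centring, quantile normalization, a constant of 16, bright probe sets only, trended and robust eBayes, array weights, each sample left out, subsets of samples, the described RNA fraction or the control difference as covariate, a replicate block, the methods' t-test, stricter thresholds and gene means. Promoter sequences come from RefSeq (GRCm38.p6).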

Additional observations from a re-analysis of the deposited data

Results flagged for a closer look

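Of the 52 sets of 4 samples formed by the member probe sets in each genotype, 2 held a sample far from the others by Dixon's test, and chance gives about 1 in 20. Dnm1l probe set 4, which is dim, read 3.93 in dnBrg1 replicate 4, against 3.24 to 3.34 in the other dnBrg1 samples (gap over range 0.852, past the 95% critical value). For Dnm1l probe set 2, wild-type replicate 4 read 10.44, against 9.92 to 9.98 in the other wild-type samples (gap over range 0.888). Neither probe set was called.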

How the results depend on the processing

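The counts were 7 member probe sets higher and 4 lower, and 23 other listed genes higher and 15 lower. Leaving out 1 sample gave 6 to 8 and 2 to 4 members, and 19 to 25 and 10 to 15 other genes. The lower member count was 2 with the described RNA fraction as covariate or with wild-type replicates 1 and 3 only, and 1 with dnBrg1 replicates 1 and 2 only, with dnBrg1 replicates 2 and 3 only, at adjusted p under 0.01 or with a 1.5-fold minimum. The lower count of other genes was 9, 8 and 9 with dnBrg1 replicates 1 and 2 only, with 2 and 3 only and at adjusted p under 0.01. The subsets with dnBrg1 replicates 2 and 3 and wild-type replicates 1 and 3 were chosen after seeing the data. With the control covariate the counts were 0, 0, 6 and 0, and the sign turned for 1 called member, Ulk1 probe set 1 (0.18), and 7 called other genes, Atg10 (0.020), Mlst8 (0.42), Foxo1 (0.21), Fis1 (-0.11), Parl (-0.29), Prkab1 (0.39) and Gabarap (-0.36). The replicate block gave 6 and 2 members and 22 and 13 other genes. Same-numbered samples did not deviate together (correlations -0.19 to 0.16) and 1 of 8 samples correlated best with its own number, so the numbers are not treated as a pairing. Of 563 single values of members under an alternative, 43 lost the call and kept their sign, and 7 gained it. A further 34 turned sign, of which 33 belong to probe sets that were not called. The remaining 1, Ulk1 probe set 1 with the control covariate, also lost its call. Probe sets near the bottom of the intensity range cannot show small changes.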

Other observations

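Genes of the mitochondrial inner membrane stood beyond those named by the rule and were chosen after their values were seen. Immt, the mitofilin gene of the cristae organizing complex, was higher at all 3 of its probe sets, by 0.92 ± 0.10, 1.21 ± 0.12 and 1.55 ± 0.11 (log2, SE), and each stayed called with the control covariate, at 1.12, 1.61 and 1.32 (limma, adjusted p = 0.023, 0.018 and 0.022). Afg3l2, a subunit of an inner membrane protease, was higher at both of its probe sets, by 0.83 ± 0.14 and 1.54 ± 0.13, and both were called with the covariate (1.33 and 1.94, limma adjusted p = 0.035 and 0.013). Spg7, its partner subunit, was higher by 1.07 ± 0.14 and Chchd3, of the same complex as Immt, by 0.69 ± 0.11, but neither passed with the covariate (limma, adjusted p = 0.30 and 0.42). Yme1l1, an inner membrane protease that cuts Opa1, was lower at 2 probe sets (-1.09 ± 0.14 and -1.09 ± 0.10) and higher at the other one (0.55 ± 0.10; log2, SE). With the covariate 1 of its decreases stayed called (-1.28, limma adjusted p = 0.021), and the other decrease (-0.64, adjusted p = 0.24) and the increase (0.53, adjusted p = 0.20) did not. The autophagy gene Wipi1 was higher at 4 of its 5 probe sets, by 0.45 to 1.64, and at none of these after the control covariate was added.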
